A study of Mus musculus with 28 samples.

Results

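The 10 genes described here encode intermediate filament, microtubule and growth-cone proteins of neurons. Among them are the neurofilament subunits Nefl, Nefm and Nefh and the related filament proteins Ina (α-internexin) and Prph (peripherin). The others are the microtubule-associated proteins Map2 and Mapt (tau), the tubulin Tubb3, and the growth-cone proteins Stmn2 and Gap43. All 10 were chosen by name for what they encode, with earlier results of these data known. Each was found among the 19938 mouse genes that had a probe set with a single gene symbol. Where a gene had several such probe sets, the probe set of highest mean across the 28 arrays stood for it, which concerned Ina alone. Total RNA had been hybridised to Affymetrix whole-transcript arrays, and every value below is a log2 expression level of the deposited table or a difference between such levels.

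The cells were of strain 129SvEv and fell into 12 groups. The first experiment set Top2β knockout cells against wild-type cells at 4 stages: embryonic stem (ES) cells, neuronal progenitors (NP), TN day 2 and TN day 6, where TN is an abbreviation left unexplained by the labels. There were 3 arrays per genotype at TN day 6 and 2 at every earlier stage. The second experiment compared DMSO with ICRF-193, a catalytic inhibitor of topoisomerase II, in neurons derived in vitro, with 2 arrays per treatment at TN day 5. The remaining experiment made the same comparison in cortical glutamatergic neurons of E16.5 embryos, with 3 arrays per treatment. The drug was given at 50 µM and renewed every 24 h between TN day 2 and 5. This text is repeated for all samples, and the days on which the cortical neurons were treated are not clear from it. It is also not stated how the knockout was made, whether 1 or several lines were used, or whether a group's arrays stem from separate cultures or animals. The p-values therefore measure only the spread between these arrays, which may be technical.

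Neurofilaments are heteropolymers of Nefl, the core subunit, with Nefm and Nefh, whose long tails project from the filament, and with Ina in central neurons. They fill the axon and set its calibre. Peripherin is a filament protein best known from peripheral neurons and from central neurons that project to the periphery, although it can co-assemble with the neurofilament subunits. Map2 stabilises microtubules mainly in the cell body and dendrites and tau mainly in the axon, while Tubb3 is the β-tubulin isotype used as a marker of young neurons. Stmn2 is a growth-cone protein that destabilises microtubules, and Gap43 is a membrane protein of the growing axon tip. Top2β is the topoisomerase II isoform of postmitotic cells and is known for acting at promoters and within long genes.

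Promoter sequence was matched in the RefSeq table of build GRCm38.p6 for 4 of the 10 members. The 250 bases before the start of 3 of them are shown. Map2 and Tubb3 were lower in knockout cells at TN day 2, where Prph was not called. Prph alone of the 3 was called in knockout cells at TN day 6, and it was higher. In cortical neurons given ICRF-193 all 3 were lower. A part of promoter sequence in these differences was not tested. Capitals mark the GC box letters GGGCGG on either strand, and all 3 sequences are on the plus strand.
Map2, chr1:66175079-66175328: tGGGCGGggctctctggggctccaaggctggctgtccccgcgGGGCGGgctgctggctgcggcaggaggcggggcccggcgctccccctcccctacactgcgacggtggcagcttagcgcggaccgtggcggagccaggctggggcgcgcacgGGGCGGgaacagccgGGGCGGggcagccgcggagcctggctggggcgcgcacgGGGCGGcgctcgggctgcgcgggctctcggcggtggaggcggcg
Tubb3, chr8:123411303-123411552: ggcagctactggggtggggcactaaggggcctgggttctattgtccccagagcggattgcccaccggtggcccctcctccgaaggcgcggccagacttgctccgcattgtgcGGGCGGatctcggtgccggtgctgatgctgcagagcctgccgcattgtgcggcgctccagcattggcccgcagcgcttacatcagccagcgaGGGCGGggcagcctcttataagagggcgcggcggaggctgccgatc
Prph, chr15:99054924-99055173: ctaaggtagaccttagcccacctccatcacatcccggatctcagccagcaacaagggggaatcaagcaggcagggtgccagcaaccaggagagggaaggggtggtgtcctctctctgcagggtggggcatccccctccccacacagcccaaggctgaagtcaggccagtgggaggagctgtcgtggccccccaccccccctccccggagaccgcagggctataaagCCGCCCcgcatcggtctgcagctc
The Map2 window held 5 GC boxes, 34 CG dinucleotides and a GC content of 81.2%. The Tubb3 window held 2 GC boxes, 21 CG dinucleotides and 68% GC. The Prph window differed in composition, with 1 GC box, 7 CG dinucleotides and 65.2% GC, and it held 1 TATAAA. For Ina, on chromosome 19, there were 2 GC boxes, 25 CG dinucleotides, 70.8% GC and no TATAAA. Of 32851 promoter windows of this length in the table, 32.7% held GGGCGG and 12.4% held TATAAA on either strand, and the median GC content was 52.4%. CANNTG, the E-box core read the same on both strands, was matched once in the Ina window and in none of the windows of Map2, Tubb3 and Prph, against 66.2% of all windows. These are matches of letters and not measured binding sites.

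The median of an array lay between 6.12 and 6.43. Arrays of one group correlated at 0.9842 or higher except the knockout ES pair, at 0.9738, of which replicate 1 correlated with the wild-type ES mean at 0.9723 and replicate 2 at 0.996. Top2b was lower in knockout cells at all 4 stages, with differences of -1.29 in ES cells and -2.41 to -2.31 later on the log2 scale; whether its probe set lies in the deleted part is not known. Pou5f1, a pluripotency factor, was between 10.48 and 11.34 in ES arrays and at most 5.74 elsewhere. The cortical markers Tbr1 and Neurod6 were at least 10.08 in every cortical array and at most 5.48 in any other array, so the TN neurons did not carry these cortical defining genes at a comparable level.

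The first question was how these genes behave as wild-type cells differentiate. From ES to NP cells, 5 members rose, 3 fell and 2 did not pass the test, against 46.3% of all genes called in this step (21.7% higher and 24.5% lower). Nefm was 6.49 and 6.33 in the wild-type ES arrays and 8.86 and 8.51 in the NP arrays. Map2 was 7.86 and 7.84 in ES cells and 10.12 and 10.02 in NP cells. These were the largest gains of the step, 2.28 ± 0.18 (log2 fold change ± SE) for Nefm and 2.22 ± 0.13 for Map2, with limma adjusted p-values of 9.8e-10 and 1.6e-11, and the groups were far apart in both genes. In bulk RNA, more cells of a type and more RNA per cell cannot be told apart, and this holds for every comparison below. Tubb3 rose by 1.15 ± 0.13, Gap43 by 0.66 ± 0.12 and Nefl by 0.51 ± 0.15. The call of Nefl was lost without wild-type ES replicate 2 or NP replicate 1, with an adjusted p of up to 0.11. Where a left-out array leaves 1 array in a group, that array is assumed to vary like the arrays of the other groups.

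Nefh, Prph and Stmn2 fell from ES to NP. Nefh was 8.22 and 8.17 in wild-type ES arrays and 6.54 and 6.34 in NP arrays. Prph was 7.23 and 7.29 in ES arrays and 5.66 and 5.98 in NP arrays. Stmn2 was 11.21 and 11.13 in ES arrays and 9.91 and 9.71 in NP arrays. No NP array reached an ES array in any of these 3 genes, and the differences were -1.75 ± 0.24 for Nefh, -1.44 ± 0.13 for Prph and -1.36 ± 0.17 for Stmn2 (limma adjusted p = 3e-06, 6e-09 and 1.3e-06). The wild-type ES level of Nefh, 8.19 ± 0.039 (SD, n = 2), was its highest group mean of all 12. Ina (0.29 ± 0.18, adjusted p = 0.19) and Mapt (-0.12 ± 0.21, adjusted p = 0.69) did not pass the test.

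From NP to TN day 2, 9 of 10 members rose and none fell, while 48.2% of all genes were called (21.6% higher, 26.6% lower). The median change of the members was 1.68 beside -0.085 for all genes. Gap43 was 8.99 and 8.77 in NP arrays and 12.13 and 12.29 at TN day 2. Tubb3 was 8.79 and 8.52 in NP arrays and 11.74 and 11.57 at TN day 2. The growth-cone gene and the neuronal tubulin thus had the largest gains of the step, with no overlap between the stages, of 3.33 ± 0.12 and 3.01 ± 0.13, or 10.1-fold and 8.03-fold (limma adjusted p = 5.2e-15 and 9e-14). Stmn2, which had dipped in NP cells, rose by 2.46 ± 0.17 to 12.27, above its ES level. Mapt, with 7.09 and 7.10 in NP arrays and 9.51 and 9.56 at TN day 2, rose by 2.44 ± 0.21 after showing no called change from ES to NP. Map2 rose by 1.76, Nefm by 1.60, Ina by 1.29, Nefh by 1.07 and Nefl by 0.45. The call of Nefl was lost without wild-type NP replicate 2 or wild-type TN day 2 replicate 1, with an adjusted p of up to 0.21. Prph was the exception, at 5.91 and 6.05 in wild-type TN day 2 arrays (0.16 ± 0.13, adjusted p = 0.33).

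Between TN day 2 and TN day 6 the wild-type members parted ways: 3 rose, 2 fell and 5 did not pass the test, against 28.5% of all genes called (16.7% higher, 11.9% lower). Mapt was 10.38, 10.48 and 10.41 at TN day 6 and thus rose by 0.89 ± 0.19 (limma adjusted p = 0.001). Tubb3 rose by 0.56 ± 0.12 and Gap43 by 0.38 ± 0.11. The 2 that fell were neurofilament subunits. Nefm was 10.36 and 10.21 at TN day 2 and 8.91, 9.00 and 8.86 at TN day 6, a drop of 2.57-fold (-1.36 ± 0.16, adjusted p = 1.2e-06). Nefl was 10.86 and 10.56 at TN day 2 and 10.30, 10.24 and 10.19 at TN day 6 (-0.47 ± 0.14, adjusted p = 0.014). Without the first wild-type TN day 2 array, the calls of Nefl and Gap43 were lost, at adjusted p-values of up to 0.22 and 0.12 over all alternatives tried. Nefh (-0.002) and Prph (0.014) showed almost the same mean at both days.

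**Figure D1:**
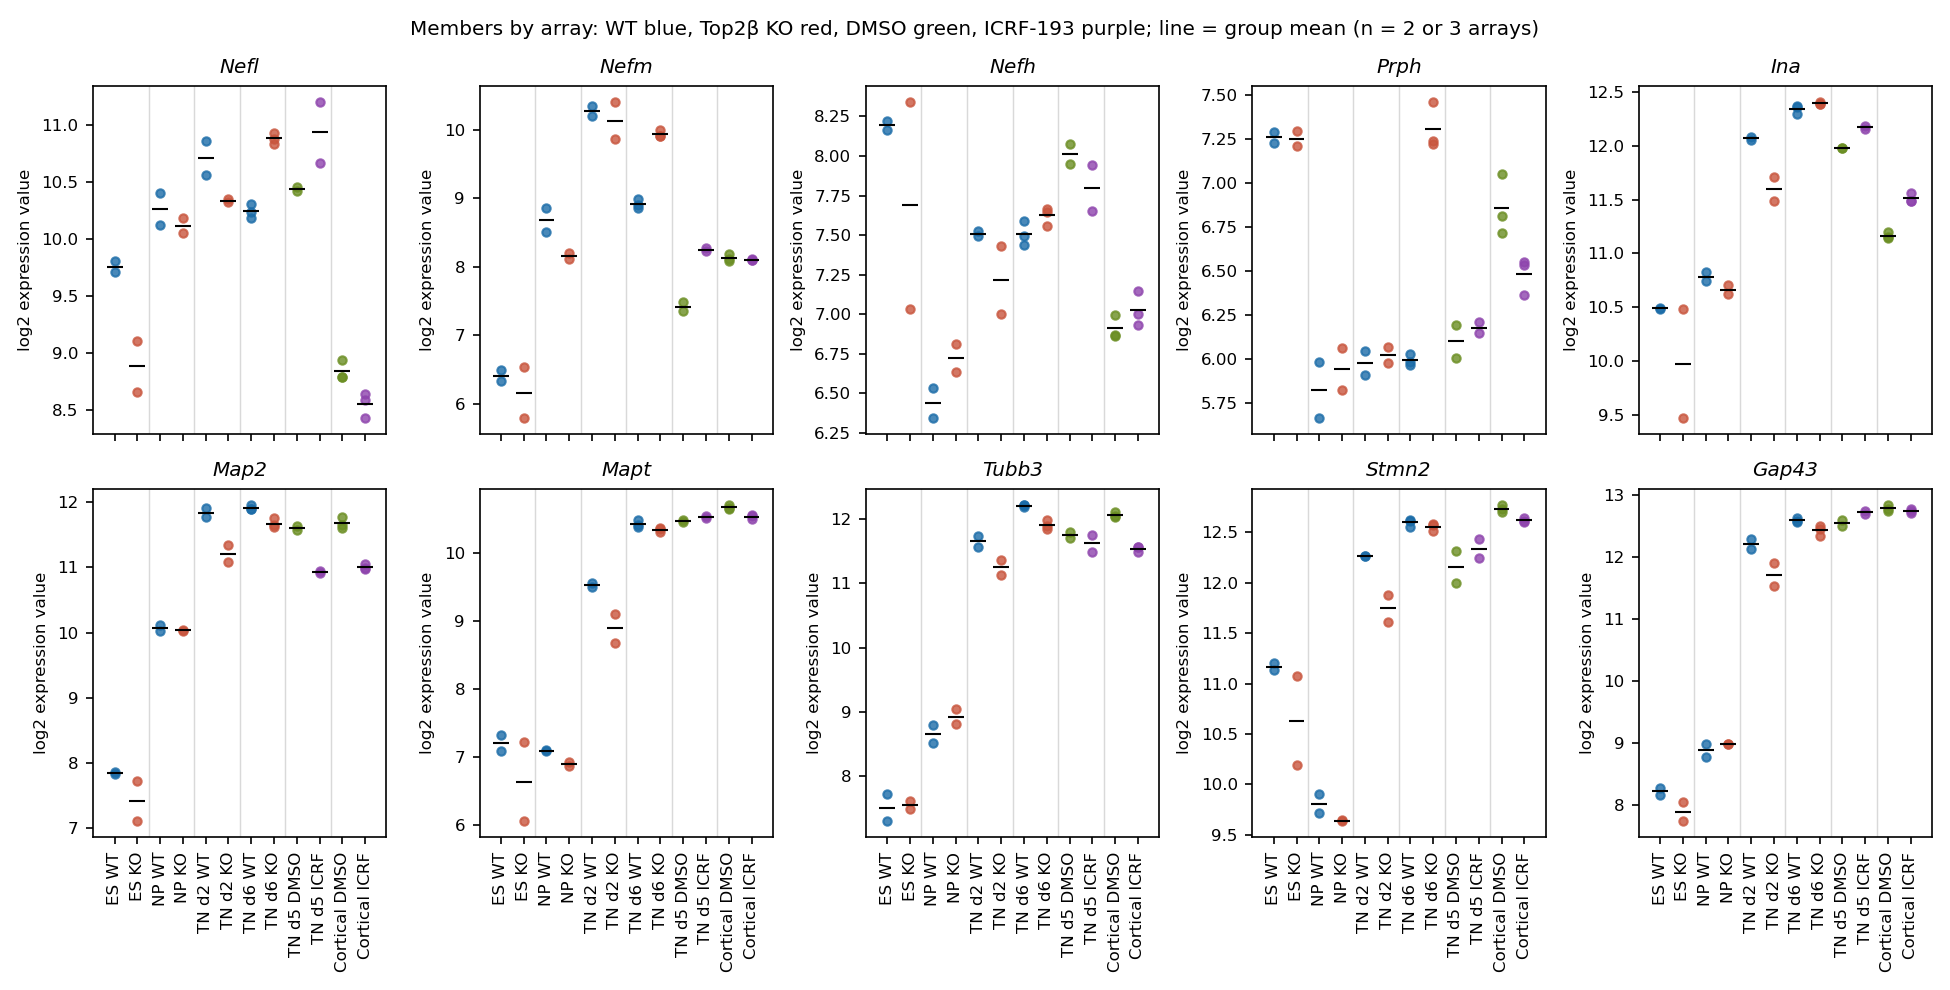
Log2 expression value (vertical axis, a separate scale for each gene) of the 10 members in the 28 arrays of the 12 groups; each point is an array and each bar a group mean. Prph is near 6 in most groups and above 7 in both ES groups and in knockout cells at TN day 6, while Gap43 and Tubb3 rise at each wild-type stage and Mapt from NP cells onward.

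**Figure D2:**
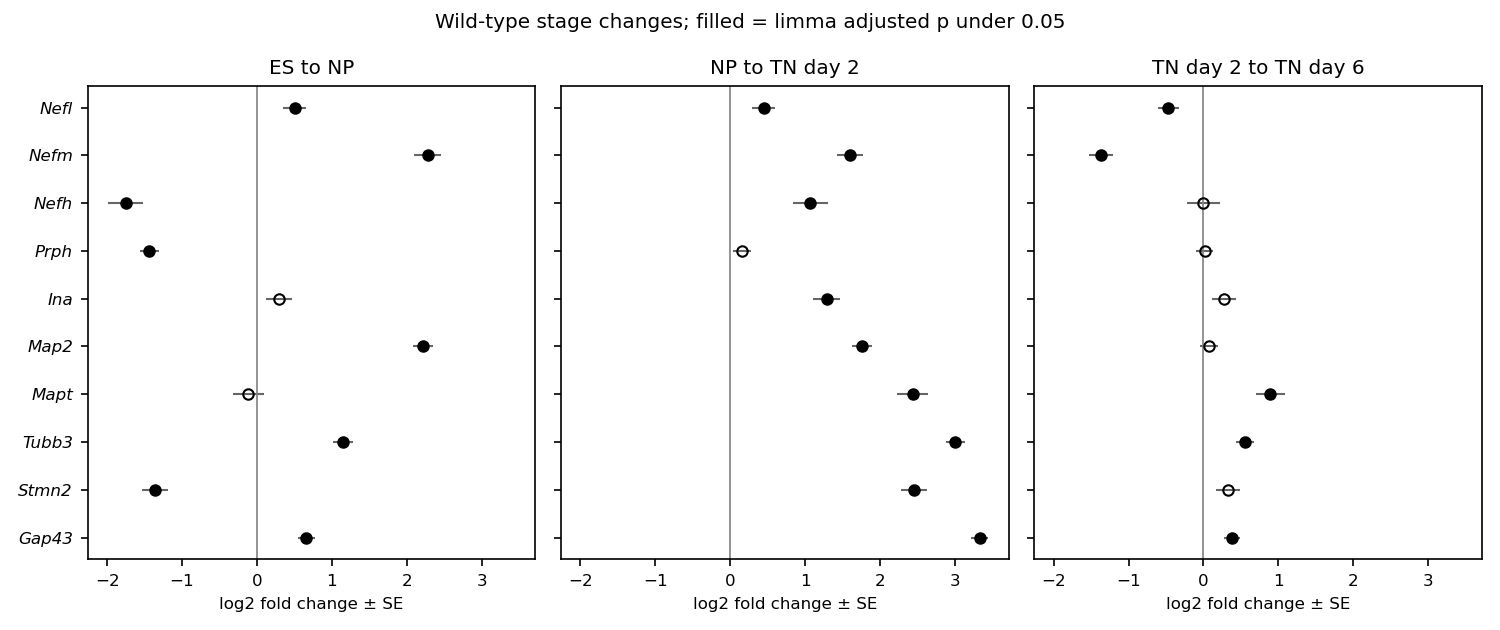
Log2 fold change of each member between successive wild-type stages, with standard errors as bars and filled symbols for limma adjusted p under 0.05. From NP to TN day 2, 9 members have filled symbols to the right of 0, and from TN day 2 to TN day 6 Nefm and Nefl lie to the left.

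Across all 12 group means the members did not follow a single profile. Gap43 correlated with Tubb3 at 0.988 and with Mapt at 0.978, Mapt with Tubb3 at 0.949, and Map2 with Tubb3 at 0.944 (Pearson, over 12 group means that share arrays and stages, as a description). The triplet subunits were less alike: Nefl with Nefm gave 0.552, Nefl with Nefh 0.238, and Nefm with Nefh -0.317. Prph was negatively correlated with Nefl (-0.4), Nefm (-0.444) and Map2 (-0.484). The span between the lowest and highest group mean was widest for Gap43, at 4.90, followed by Tubb3 at 4.71 and Map2 at 4.50, and narrowest for Prph at 1.48 and Nefh at 1.75. Among all genes these spans stood at the 98.7th percentile for Gap43 and the 64.4th for Prph.

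Each member had its own order of groups. Gap43, Mapt and Stmn2 were highest in cortical neurons given DMSO, with means of 12.79 ± 0.048, 10.68 ± 0.029 and 12.73 ± 0.037 (SD, n = 3). For Gap43 the top of the order was not separated, since the arrays of the 2 cortical groups overlapped, as did those of cortical neurons and TN day 5 neurons given ICRF-193. Tubb3 and Map2 were highest in wild-type cells at TN day 6, at 12.21 ± 0.015 and 11.91 ± 0.038, where Map2 overlapped its TN day 2 level and Tubb3 did not overlap the next group. Ina was highest at TN day 6, with 12.34 ± 0.040 in wild-type and 12.40 ± 0.012 in knockout cells. Nefl had the opposite placing for the cortex: its lowest means were 8.55 ± 0.11 and 8.84 ± 0.087 in the cortical groups, below wild-type ES cells at 9.76, and the cortical DMSO arrays overlapped those of knockout ES cells. Nefm was lowest in ES cells and highest at TN day 2, where the wild-type and knockout arrays overlapped. For Prph the 7 lowest groups, from NP to TN day 5, overlapped their neighbours throughout, and the cortical groups lay between them and the 3 highest groups.

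The genes most like each member over the 12 group means were named by the rule of highest Pearson correlation. For Tubb3 they were Rab3c, Klhdc2 and Kifbp (0.998, 0.993 and 0.992), for Gap43 Ccdc88a, Rundc3b and 9330159F19Rik (0.996 each), and for Mapt Zfp597, Rimklb and Atp8a2 (0.996, 0.994 and 0.994). For Ina they were Ccp110, Ddx5 and Srsf4 (0.993, 0.982 and 0.979), for Map2 Plppr1, Gdpd1 and Hcfc2 (0.99, 0.983 and 0.98), and for Stmn2 Dgke, Esco1 and the spectrin Sptan1 (0.99, 0.986 and 0.985). The likeness was looser for Nefm (Zfp647, Slc22a15 and Kiz, 0.954 to 0.944), Nefl (Rad21, Ubn2 and Plekha5, 0.933 to 0.916), Prph (Iffo2, Gpr180 and 3830403N18Rik, 0.933 to 0.883) and Nefh (Mia, 4930548H24Rik and the filament linker Dst, 0.925 to 0.909).

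The design compares knockout with wild type at each stage, to see which genes depend on Top2β as neurons form. In ES cells, Nefl was the single member that passed the test and was lower, against 0.351% of all genes called (0.0853% higher, 0.266% lower). It was 9.80 and 9.71 in wild-type arrays beside 8.66 and 9.11 in knockout arrays (-0.87 ± 0.15, limma adjusted p = 0.012). The knockout arrays lay below both wild-type arrays but also apart from each other. Knockout replicate 1, the array that stood apart over all genes, was the lower of the pair for 8 of the 10 members, all but Nefm and Prph. Ina was 9.46 in it and 10.48 in replicate 2, beside 10.50 and 10.49 in wild type. Mapt was 6.05 and 7.23 in the knockout arrays, beside 7.09 and 7.32. Nefl stood at -1.10 without replicate 2, a fit that rests on the array that stood apart, and at -0.65 without replicate 1. Its call was lost without replicate 1 or without either wild-type array. Mesenchymal marker genes averaged 8.29 and 8.30 in the wild-type and 8.09 and 9.98 in the knockout ES arrays, with 0 of 9 called; their part in the difference was not tested.

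In NP cells none of the 10 members passed the test in limma, where 0.627% of all genes were called (0.381% higher, 0.246% lower). The member nearest to a call was Nefm, at 8.86 and 8.51 in wild-type arrays beside 8.11 and 8.20 in knockout arrays (-0.53 ± 0.18, unadjusted p = 0.0065, adjusted p = 0.29), and it alone had an unadjusted p under 0.05. It was called when the knockout ES arrays, which widen the pooled spread, were left out of the fit. Tubb3 was 0.27 ± 0.13 higher in knockout NP cells (adjusted p = 0.67). Median changes of the members were -0.47 in ES cells and -0.078 in NP cells, beside 0.009 and -0.018 for all genes.

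At TN day 2, the knockout cells had lower levels of 4 members, namely Map2, Gap43, Mapt and Tubb3, and no member was higher. Of all genes 11.5% were called, 5.97% lower. Map2 was 11.90 and 11.77 in wild-type arrays beside 11.34 and 11.08 in knockout arrays. Gap43 was 12.13 and 12.29 in wild-type arrays beside 11.90 and 11.53 in knockout arrays. Both knockout arrays lay below both wild-type arrays in these genes, with differences of -0.62 ± 0.13 for Map2, or 1.54-fold, and -0.49 ± 0.12 for Gap43, or 1.41-fold (limma adjusted p = 0.0034 and 0.0072). Mapt was 9.51 and 9.56 in wild-type arrays beside 9.10 and 8.68 in knockout arrays, a difference of -0.64 ± 0.21 (adjusted p = 0.049). Tubb3 was 11.74 and 11.57 in wild-type arrays beside 11.37 and 11.14 in knockout arrays, a difference of -0.40 ± 0.13 (adjusted p = 0.049). Knockout replicate 2 had the lower value of the pair in each of the 4 genes.

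Among the remaining members at TN day 2, Stmn2 was 12.27 in both wild-type arrays and 11.88 and 11.61 in the knockout arrays (-0.52 ± 0.17, adjusted p = 0.055). Ina (-0.47 ± 0.18, adjusted p = 0.094), Nefl (-0.37 ± 0.15, adjusted p = 0.13) and Nefh (-0.29 ± 0.24, adjusted p = 0.53) also had non-overlapping groups with lower knockout arrays and missed the threshold. Nefm (-0.15 ± 0.18) overlapped between the genotypes, as did Prph (0.044 ± 0.13). With 2 arrays per group, here and at the other stages, separation alone carries little weight. In NP cells 6 of 10 members did not overlap between the genotypes although none was called. The share of all genes without overlap was not counted. At TN day 2 the median over the 10 members was -0.44, beside -0.042 for all genes. The 4 calls were not firm: none was made when the spread came from these 4 arrays alone or without knockout replicate 2. Gap43 alone was called without wild-type replicate 1, Map2 alone without wild-type replicate 2, and Stmn2 was added without knockout replicate 1. Neuronal marker genes outside the members moved with them, since 8 of 10 were lower, with means per array of 9.74 and 9.75 in wild-type arrays beside 8.98 and 9.25 in knockout cells. Cell cycle genes were higher for 3 of 7 (8.88 and 9.10 beside 9.55 and 9.57) and mesenchymal genes for 3 of 9 (7.3 and 8.92 beside 9.09 and 9.48). Progenitor genes were lower for 2 of 8, Pax6 (-1.26) and Hes5 (-1.10), and higher for 1, Slc1a3 (0.87). Glutamatergic genes were lower for 3 of 6. The part of these cell types in the lower cytoskeletal levels was not tested.

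At TN day 6 the picture was different: Prph, Nefm and Nefl were higher in knockout cells, and no member was called lower, against 10.2% of all genes called, 5.38% upward. Prph was 6.03, 5.98 and 5.97 in wild-type arrays beside 7.24, 7.46 and 7.22 in knockout arrays. These wild-type values lay below the lowest array median of 6.12, so the wild-type level was low. The Prph difference of 1.31 ± 0.10, or 2.49-fold, was the largest of any member in a knockout or drug comparison (limma adjusted p = 9.6e-09). All 3 knockout arrays lay in or above the range of the 4 ES arrays (7.21 to 7.30), while wild-type NP cells were already below 6. Nefm was 8.91, 9.00 and 8.86 in wild-type arrays beside 10.01, 9.92 and 9.91 in knockout arrays (1.02 ± 0.14, 2.03-fold, adjusted p = 3.8e-05). Nefl was 10.30, 10.24 and 10.19 in wild-type arrays beside 10.94, 10.84 and 10.88 in knockout arrays (0.64 ± 0.12, 1.56-fold, adjusted p = 0.0012). The spread within each group, at most 0.13 (SD, for Prph in knockout cells), was smaller than each of these differences. The 3 calls were also made in each of the 6 fits that left out an array of these groups.

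The step from TN day 2 to TN day 6 within knockout cells was not tested, and the values of Nefl and Nefm are given as a description. Nefl was 10.34 ± 0.018 (SD, n = 2) at TN day 2 and 10.88 ± 0.049 (n = 3) at TN day 6, with no overlap, whereas in wild-type cells it fell. In knockout cells Nefm was 10.14 ± 0.39 (SD, n = 2) at TN day 2 and 9.94 ± 0.055 (n = 3) at TN day 6, whereas in wild-type cells it went from 10.28 ± 0.10 to 8.92 ± 0.070. The other neurofilament proteins did not pass the test: Nefh was 7.50, 7.44 and 7.59 in wild-type arrays beside 7.56, 7.67 and 7.65 in knockout arrays (0.12 ± 0.19, adjusted p = 0.84), and Ina differed by 0.056 ± 0.14. Tubb3 was 12.23, 12.22 and 12.20 in wild-type arrays beside 11.99, 11.89 and 11.85 in knockout arrays, so that the groups were apart by more than their spread, but the difference of -0.31 ± 0.11 missed the threshold (adjusted p = 0.077). Map2 differed by -0.24 ± 0.11 (adjusted p = 0.2), Gap43 by -0.16 ± 0.094, Mapt by -0.086 ± 0.17 and Stmn2 by -0.044 ± 0.14. The median over the members was 0.006, beside 0.002 for all genes, with members on both sides of 0.

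Other marker genes also differed at TN day 6. Of the cell cycle genes 7 of 7 were higher, with means per array of 6.3 to 6.57 in wild type beside 7.38 to 7.89 in knockout cells, and 5 of 8 progenitor genes were higher (8.16 to 8.31 beside 9.17 to 9.54). Of the peripheral, sensory and motor neuron genes, the cells in which peripherin is best known, 2 of 7 were higher: Isl1, a motor and sensory neuron factor (0.84 ± 0.20, limma adjusted p = 0.0061), and Ret, a receptor of the GDNF family of neurotrophic factors (0.64 ± 0.12, adjusted p = 0.00065). The other 5 did not pass the test, and 3 of them had negative values: Phox2a (-0.40, adjusted p = 0.059), Pou4f1 (-0.24) and Sox10 (-0.10). The mean of that list per array was 6.44 to 6.46 in wild-type and 6.54 to 6.68 in knockout cells. In cortical neurons, where Prph was lower with ICRF-193, Isl1 had a mean of 5.91 with DMSO and 7.12 with ICRF-193. Of the list, 1 gene was called higher and 1 lower there, and 0 were called with ICRF-193 at TN day 5. In knockout cells at TN day 6, neuronal markers outside the members were lower for 3 of 10 and higher for 1. Pluripotency genes were higher there for 2 of 6, Esrrb (1.10) and Klf4 (0.67), and lower for 0, with Pou5f1 at 4.29 to 4.48 in the knockout arrays. Oligodendrocyte genes were higher for 2 of 5. Glutamatergic genes were lower for 2 of 6, the vesicular transporter Slc17a6 (-1.96 ± 0.23, adjusted p = 3e-06) and the receptor subunit Grin2b (-1.02 ± 0.13, adjusted p = 1.4e-05), with means per array of 7.54 to 7.63 in wild type beside 6.9 to 7.11 in knockout. The part of each of these in the rise of Prph, Nefm and Nefl was not tested.

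The change of the knockout effect between TN day 2 and TN day 6 was tested directly. It was 1.27 ± 0.16 for Prph (limma adjusted p = 5.9e-05), 1.17 ± 0.23 for Nefm and 1.02 ± 0.20 for Nefl (adjusted p = 0.0035 for both), against 4.8% of all genes called (2.71% higher, 2.09% lower). Without knockout TN day 2 replicate 2 the value for Nefm was not called (adjusted p = 0.051, the highest over its alternatives). All 10 members had a higher knockout effect at the later day, but for the other 7 the difference missed the threshold, from 0.097 ± 0.17 for Tubb3 to 0.56 ± 0.27 for Mapt. These values share the same arrays and are not independent, and the share of all genes with a positive value was not counted. The median was 0.50 for the members beside 0.033 for all genes. The earlier change, from NP to TN day 2, was called for none of the members and for 2.71% of all genes in limma (1.38% higher, 1.33% lower). Tubb3 (-0.67 ± 0.18) and Gap43 (-0.59 ± 0.16) came nearest, each with an adjusted p of 0.053, and both were called without wild-type NP replicate 1. Members with an unadjusted p under 0.05 in that test were these 2 and Map2 (-0.59 ± 0.19, adjusted p = 0.1), and all 3 were called without knockout TN day 2 replicate 1. Tubb3 alone was called without wild-type TN day 2 replicate 2.

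**Figure D3:**
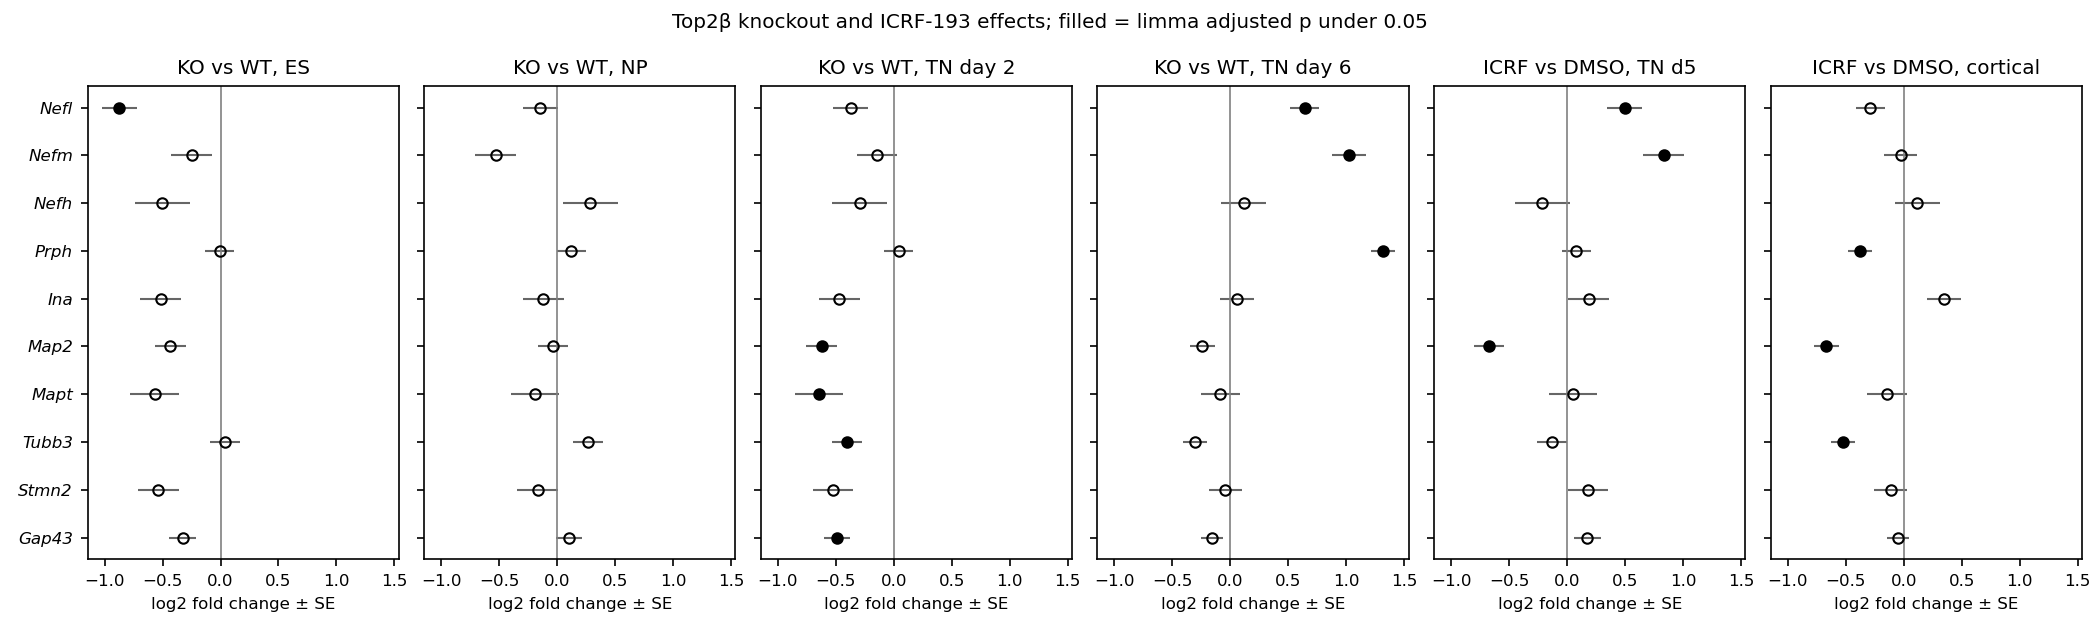
Log2 fold change of each member in the 4 knockout and 2 ICRF-193 comparisons, with standard errors as bars and filled symbols for limma adjusted p under 0.05. Map2, Mapt, Tubb3 and Gap43 are filled and left of 0 at TN day 2, Nefl, Nefm and Prph are filled and right of 0 at TN day 6, and Map2 is filled and left of 0 with ICRF-193 in both neuron types.

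In the drug experiments, neurons received the inhibitor instead of being made without the enzyme. At TN day 5, ICRF-193 gave higher Nefm and Nefl and lower Map2, with 7 members not passing the test and 8.89% of all genes called (2.51% higher, 6.37% lower). Nefm was 7.35 and 7.49 in DMSO arrays and 8.27 and 8.23 in ICRF-193 arrays (0.83 ± 0.18, 1.78-fold, limma adjusted p = 0.004). Nefl was 10.42 and 10.46 in DMSO arrays and 10.67 and 11.21 in ICRF-193 arrays (0.50 ± 0.15, adjusted p = 0.045). The treated arrays lay above both controls for each subunit, but those of Nefl were far from each other (SD 0.38), and its call was lost in 7 of 13 alternatives, among them without either DMSO array or ICRF-193 replicate 2 (adjusted p of up to 0.36). Map2 was 11.63 and 11.57 in DMSO arrays and 10.95 and 10.91 in ICRF-193 arrays (-0.67 ± 0.13, 1.6-fold, adjusted p = 0.002). Its groups were separated by several times their spread, and the call was lost only when the spread came from these 4 arrays alone.

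The other members at TN day 5 stayed closer to DMSO. Ina was 11.98 in both control arrays and 12.16 and 12.19 with ICRF-193 (0.19 ± 0.18, adjusted p = 0.56). Gap43 (0.18 ± 0.12), Stmn2 (0.18 ± 0.17) and Mapt (0.051 ± 0.21) had small positive values, and Nefh (-0.21 ± 0.24) and Tubb3 (-0.13 ± 0.13) negative ones, with adjusted p-values of 0.38 to 0.91. Prph, which was higher in knockout cells at TN day 6, was 6.01 and 6.20 in DMSO arrays and 6.21 and 6.15 in ICRF-193 arrays (0.078 ± 0.13). The median of the members was 0.13 beside 0.02 for all genes. Progenitor genes were lower for 5 of 8 (8.08 and 8.84 beside 6.68 and 6.71), cell cycle genes for 6 of 7 (6.88 and 7.57 beside 5.87 and 6.22) and neuronal markers outside the members for 3 of 10. Their part in the member differences was not tested.

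In cortical neurons, Map2, Tubb3 and Prph were lower with ICRF-193 and no member was called higher, where 23.4% of all genes were called (9.72% higher, 13.7% lower). Map2 was 11.77, 11.65 and 11.60 in DMSO arrays and 10.97, 11.06 and 10.99 in ICRF-193 arrays (-0.67 ± 0.11, 1.59-fold, limma adjusted p = 9e-05). Tubb3 was 12.12, 12.04 and 12.04 in DMSO arrays and 11.58, 11.48 and 11.57 in ICRF-193 arrays (-0.52 ± 0.11, 1.44-fold, adjusted p = 0.0011). For both genes the gap between the groups was much wider than the spread within them. Prph was 6.72, 6.81 and 7.05 in DMSO arrays and 6.55, 6.36 and 6.53 in ICRF-193 arrays (-0.38 ± 0.10, 1.3-fold, adjusted p = 0.01). Its groups did not overlap, and the call was lost without DMSO replicate 3 or without ICRF-193 replicate 2, with an adjusted p of up to 0.079.

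Among the neurofilament genes in cortical neurons, Ina was 11.20, 11.16 and 11.14 in DMSO arrays and 11.49, 11.57 and 11.49 in ICRF-193 arrays. The groups did not overlap, and the difference of 0.35 ± 0.14 missed the threshold (adjusted p = 0.086). Nefl was 8.79, 8.78 and 8.94 in DMSO arrays and 8.42, 8.64 and 8.59 in ICRF-193 arrays, a difference of -0.29 ± 0.12 (adjusted p = 0.099). Nefm was 8.19, 8.09 and 8.11 in DMSO arrays and 8.10, 8.11 and 8.11 in ICRF-193 arrays, with overlapping arrays (-0.027 ± 0.14). Mapt (-0.14 ± 0.17), Stmn2 (-0.11 ± 0.14), Gap43 (-0.046 ± 0.094) and Nefh (0.12 ± 0.19) also did not pass. Centring each array on its median moved the median of all genes in this comparison from 0.043 to -0.075, and the centred differences themselves were -0.79 for Map2, -0.64 for Tubb3, -0.49 for Prph and -0.41 for Nefl, of which Nefl was then called too. Astrocyte genes were lower for 5 of 6 (7.7 to 7.92 beside 6.22 to 6.33), cell cycle genes for 7 of 7 (7.75 to 7.83 beside 6.02 to 6.06) and oligodendrocyte genes for 3 of 5 (7.64 to 7.77 beside 5.89 to 5.97). Microglial genes were higher for 6 of 6 (6.64 to 6.75 beside 7.4 to 7.55), and neuronal markers outside the members split into 3 higher and 3 lower. Progenitor and radial glia genes were lower for 4 of 8 (9.37 to 9.41 beside 8.27 to 8.36), among them Slc1a3 (-3.00) and Fabp7 (-2.15). The part of these cell types in the member differences was not tested.

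The drug effect on Map2 was of like size in both neuron types, -0.67 in each, and its difference between them was 0.006 ± 0.17 (limma adjusted p = 0.99), with cortical and TN day 5 neurons coming from separate experiments. For the neurofilament subunits Nefl and Nefm the effects differed. The effect in cortical neurons minus that at TN day 5 was -0.79 ± 0.20 for Nefl (adjusted p = 0.021) and -0.86 ± 0.23 for Nefm (adjusted p = 0.029). Of all genes 4.37% were called (1.69% higher, 2.68% lower). Nefh (0.33 ± 0.31, adjusted p = 0.71) and Ina (0.16 ± 0.23, adjusted p = 0.84) did not pass this test. The calls of Nefl and Nefm depended on single arrays. The call of Nefm was lost whichever of the 10 arrays was left out, except cortical DMSO replicate 2 (adjusted p of up to 0.12). That of Nefl was lost without either DMSO array or ICRF-193 replicate 2 of TN day 5, cortical DMSO replicate 3 or cortical ICRF-193 replicate 1 (adjusted p of up to 0.14). For Tubb3 (-0.39 ± 0.17, adjusted p = 0.24) and Prph (-0.46 ± 0.16, adjusted p = 0.14) the drug effect was lower in cortical neurons than at TN day 5. The difference of their effects between the neuron types missed the threshold.

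**Figure D4:**
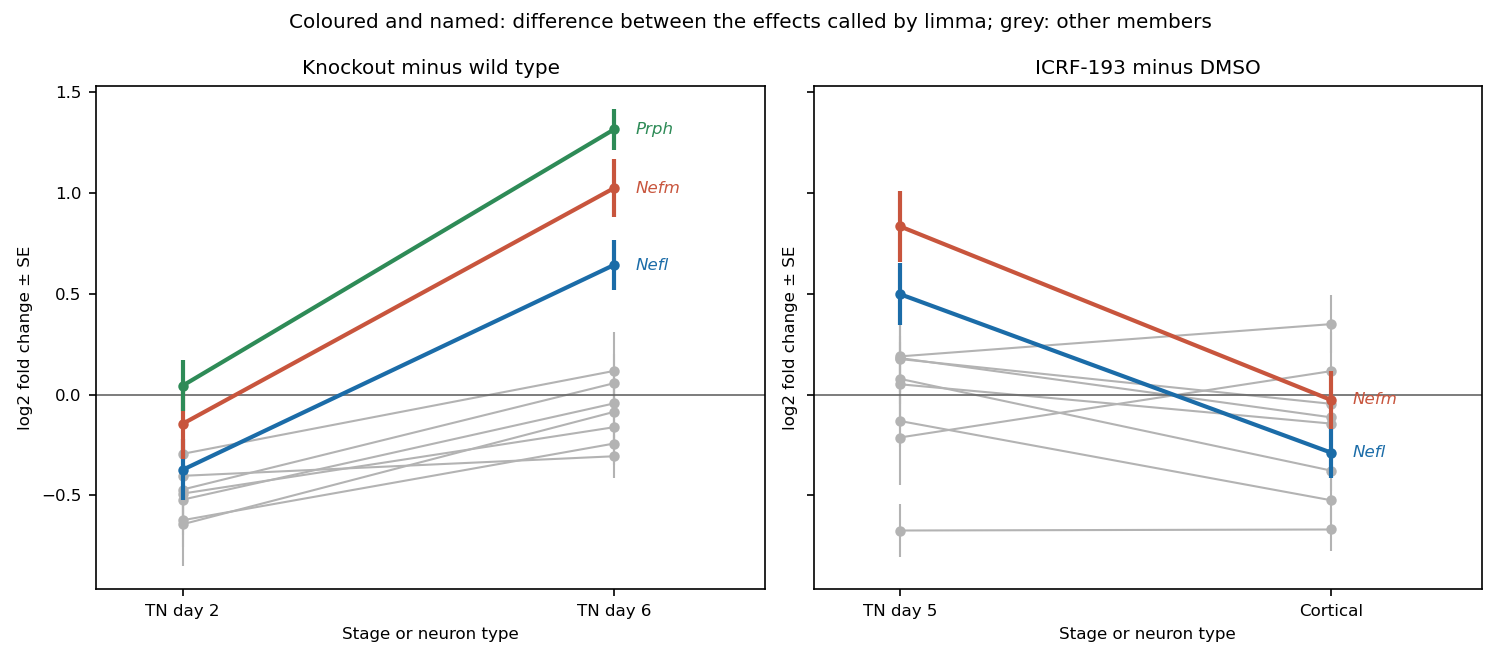
Left, log2 fold change of knockout against wild type for each member at TN day 2 and TN day 6; right, ICRF-193 against DMSO at TN day 5 and in cortical neurons; bars are standard errors, and coloured lines mark members whose difference between the effects was called by limma. Prph, Nefm and Nefl rise from TN day 2 to TN day 6 on the left, and Nefm and Nefl are higher at TN day 5 than in cortical neurons on the right.

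Set side by side, the Nefl and Nefm pair was higher both in knockout cells at TN day 6 (0.64 and 1.02) and with ICRF-193 at TN day 5 (0.50 and 0.83), comparisons that share no arrays. The control levels of Nefm were far apart, with means of 8.92 in wild-type cells at TN day 6 and 7.42 with DMSO at TN day 5. Its mean with ICRF-193 at TN day 5, 8.25, was still below that wild-type level. The call of Nefl at TN day 5 was made in 6 of 13 alternatives. Nefl and Nefm are neighbouring genes in the RefSeq annotation of GRCm38.p6. Map2 was lower in knockout cells at TN day 2 (-0.62) and with ICRF-193 at TN day 5 (-0.67) and in cortical neurons (-0.67), and was -0.24 without a call at TN day 6. Tubb3 was lower at TN day 2 (-0.40) and in cortical neurons (-0.52). Prph went in opposite directions, higher in knockout cells at TN day 6 (1.31) and lower with ICRF-193 in cortical neurons (-0.38). Gap43 and Mapt were called at TN day 2 alone among the 6 comparisons, and Nefh, Ina and Stmn2 in none of them. Ina has a second probe set, whose differences had the same sign as those of the first in all 6 comparisons, with the widest gap in ES cells (-0.62 beside -0.52). From wild-type TN day 2 to TN day 6, where neither was called in the table used here, they were -0.015 ± 0.15 and 0.27 ± 0.16.

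The members differ in the length of their genes. In the RefSeq annotation of GRCm38.p6 the longest was Map2, at 267.38 kb, followed by Mapt (102.68 kb), Gap43 (92.1 kb) and Stmn2 (52.08 kb), while Ina, Tubb3 and Nefh spanned 9.31 to 10.65 kb, and Nefm, Prph and Nefl 5.23 to 5.46 kb. The 4 members longer than 50 kb had differences of -0.64 to -0.49 in knockout cells at TN day 2, and the 6 shorter ones -0.47 to 0.044. At TN day 6 the values were -0.24 to -0.044 for the long and -0.31 to 1.31 for the short members. Spearman's rho between length and log2 fold change over the 10 members was -0.9 at TN day 2, -0.77 at TN day 6, -0.48 with ICRF-193 at TN day 5 and -0.12 in cortical neurons; it was -0.13 in ES and -0.12 in NP cells. These are descriptions of 10 chosen genes that also differ in level and cell type, and the part of length was not tested.

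Other cytoskeletal genes were followed in 7 lists of 94 symbols, of which 87 were measured. The list of intermediate filaments also holds genes that are not axonal, such as the keratins Krt8 and Krt18 and the progenitor filaments Nes and Vim. Dcx, Nes, Vim and Gfap are counted among the marker genes as well. In wild-type cells 44 were higher and 19 lower from ES to NP, where 21.7% and 24.5% of all genes were. From NP to TN day 2, 57 were higher and 12 lower, beside 21.6% and 26.6% of all genes. From TN day 2 to TN day 6, 33 were higher, 7 lower and 47 not called, beside 16.7% and 11.9%, the 33 becoming 21 without wild-type TN day 2 replicate 2. Dcx, a microtubule-associated protein of migrating neurons, rose by 4.55 ± 0.13 and then by 2.53 ± 0.13 in the first 2 steps, and Kif5a, a neuronal kinesin heavy chain, by 2.30 ± 0.11 in the middle one. The epithelial keratins Krt18 and Krt8 fell from NP to TN day 2 (-4.08 and -3.35), and the progenitor filaments Nes and Vim fell from TN day 2 to TN day 6 (-1.75 and -1.40), when Nefm and Nefl fell as well.

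In knockout ES and NP cells none of the 87 was called by limma. Without knockout ES replicate 2, some were called in each direction in ES cells. That fit rests on replicate 1, the array that stood apart, and its share of all genes called is not given. At TN day 2, 33 of the 87 were lower in knockout cells and 4 higher, with a median of -0.32, where 5.97% of all genes were lower and 5.49% higher. Like the calls of the members, the count of lower genes rested on single arrays: it was 2 without knockout replicate 2, 7 without wild-type replicate 1 and 1 when the spread came from these 4 arrays alone. Genes of small groups named below beyond the 2 with the largest difference of their list were chosen after their values were seen. Of 19 other microtubule-associated proteins 10 were lower, among them the doublecortin relative Dclk2 (-0.68 ± 0.14, limma adjusted p = 0.003) and the minus-end binder Camsap3 (-0.64 ± 0.12, adjusted p = 0.0013). Of 13 stathmins, growth-cone genes and collapsin response mediators 7 were lower, with Dpysl4 at -0.86 ± 0.16 and Cdk5r1, the activator of Cdk5, at -0.59 ± 0.13. Of 15 transport motors 8 were lower, such as the kinesins Kif5c (-0.69 ± 0.11) and Kif1b (-0.57 ± 0.14), and of 11 tubulin modifying and severing enzymes 5: the severing protein relative Fign (-0.85), the acetyltransferase Atat1 (-0.54), the severing protein Spast (-0.38), and Ttl and Ttll1 (both -0.30). Spectrins, ankyrins and linkers split into 3 lower and 2 higher of 10. Ank3, the ankyrin of the axon initial segment (-0.98 ± 0.17), the adducin Add2 (-0.75) and the spectrin Sptan1 (-0.27) were lower, and the adducin Add3 (1.15 ± 0.19) and the linker Plec (0.50) higher. The tubulin Tubb6 (1.02 ± 0.21) and the keratin Krt18 (0.88 ± 0.23), neither of them neuron-specific, were the only calls in the tubulin and intermediate filament lists, both upward.

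At TN day 6, 7 of the 87 were higher and 3 lower, where 5.38% and 4.8% of all genes were, so that the share called was near that of all genes (10.2%). The 7 became 4 without knockout replicate 2, and with array weights 15 were higher and 10 lower. Intermediate filaments held 4 of the higher ones, with Krt18 at 1.10 ± 0.19 and Nes, the progenitor filament, at 1.08 ± 0.26 (limma adjusted p = 0.00029 and 0.0075), beside Krt8 (1.05) and Vim (1.03), so that filament genes of progenitors and epithelia were higher in the same arrays as Prph, Nefm and Nefl. Add3 (0.87), Plec (0.42) and Fign (0.59 ± 0.16), the last of them lower at TN day 2, were also higher. Ank3 (-0.66 ± 0.14), Camsap3 (-0.50 ± 0.10) and the kinesin Kif3a (-0.35 ± 0.11) were the 3 lower genes, and no stathmin, growth-cone gene or tubulin was called.

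With ICRF-193 the filament genes of progenitors went the other way. At TN day 5, 8 of the 87 were called, a share near the 8.89% of all genes (6.37% lower, 2.51% higher). The 7 lower genes were Nes (-1.39 ± 0.32), Vim (-0.77 ± 0.23), Ank3 (-1.24 ± 0.17), Ank2 (-1.06 ± 0.16), Dclk1 (-0.82 ± 0.19), the γ-tubulin Tubg1 (-0.39) and Ttl (-0.37). The stathmin Stmn4 was the single higher gene (0.54 ± 0.12, limma adjusted p = 0.0076). The 7 became 2 without DMSO replicate 2 and 3 without ICRF-193 replicate 1, and Stmn4 was lost without DMSO replicate 1 or ICRF-193 replicate 2. In cortical neurons 21 were lower and 2 higher, with 5 of 9 tubulins and 5 of 10 spectrins, ankyrins and linkers among the lower ones; 13.7% of all genes were lower and 9.72% higher. After median centring 33 were lower and none higher, and with array weights 38 were lower and 9 higher. Ank2 (-2.35) and Ank3 (-1.81) fell more than any of the 10 members, and the intermediate filaments Synm (-1.45 ± 0.11) and Nes (-1.41 ± 0.26), the tubulins Tubb4a (-0.53 ± 0.17) and Tubg1 (-0.47 ± 0.088) and the dynein subunit Dync1i1 (-0.66 ± 0.12) were lower as well. The other lower tubulins were Tuba4a (-0.44), Tubb5 (-0.34) and Tubb2b (-0.20), in the same comparison as the lower member Tubb3 (-0.52). The higher genes were Marcksl1 (0.21 ± 0.073) and Ttll1 (0.27), of which 1 was left whichever array was left out.

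**Figure D5:**
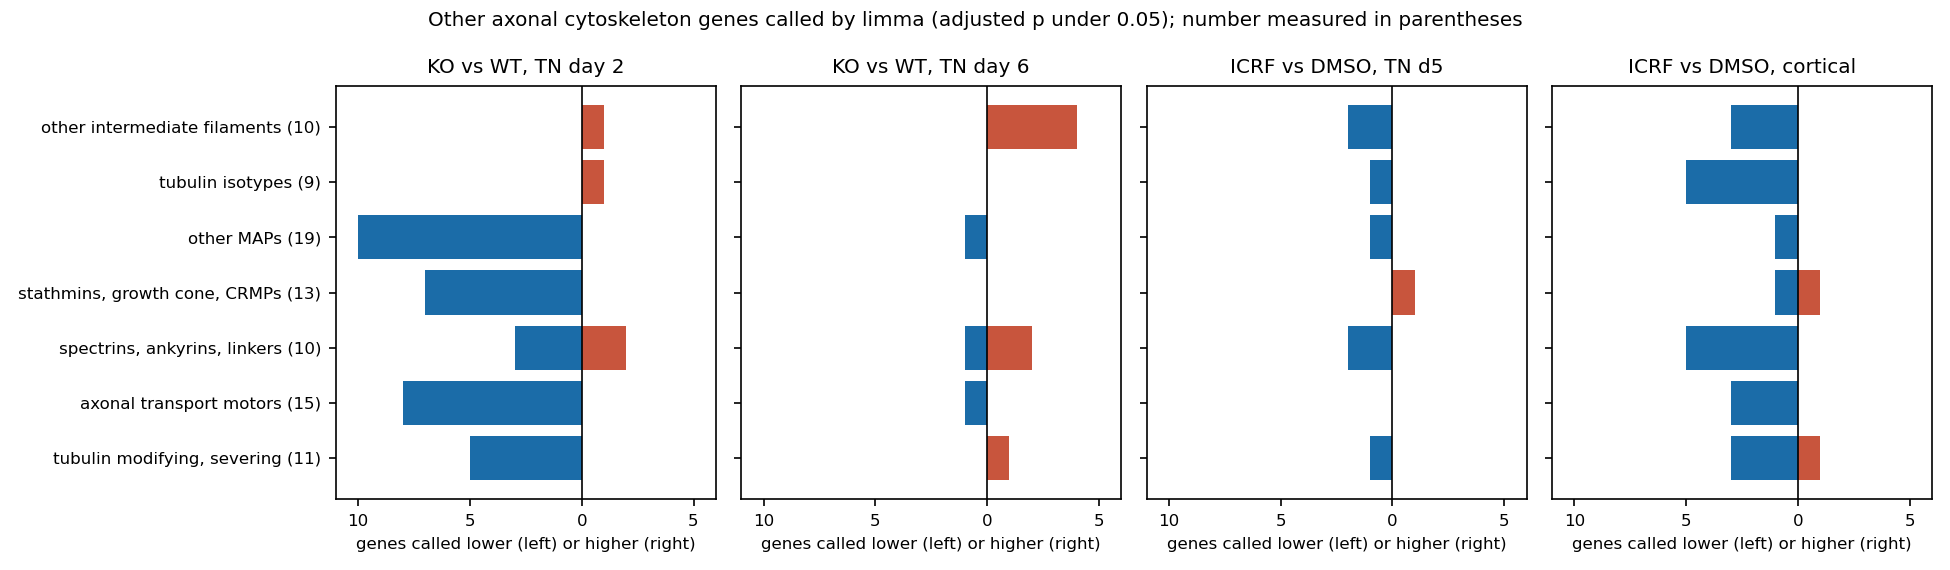
Number of genes called lower (left of 0) or higher (right of 0) by limma in each of the 7 lists of other cytoskeletal genes, not all of them axonal. The TN day 2, TN day 6 and both ICRF-193 comparisons are shown, with the number measured in parentheses. At TN day 2, 10 of 19 other microtubule-associated proteins and 8 of 15 motors are lower, and at TN day 6 intermediate filaments hold 4 of the 7 higher genes.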

How the data were processed

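Gene-level values came from 28 Affymetrix arrays in 12 groups, with 35556 probe sets in the deposited value table. The deposited values are log2 expression levels: the submitters' processing notes name the R package oligo, version 1.14.0, while background correction, summarisation and log base are steps not given in the sources used here, and base 2 was read from the range of 1.963 to 13.99. Of the probe sets, 21789 had 1 gene symbol in the platform annotation, 1621 had several and 12146 had none listed; the first kind gave 19938 genes, of which 999 had several probe sets and were represented by the one with the highest mean.

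The model, with a mean for each of the 12 groups, used limma 3.58.1 (R 4.3.3) on all arrays (16 residual degrees of freedom, 4.87 prior degrees of freedom). Each comparison was tested two-sided with the moderated statistic of limma, and p-values were adjusted by the Benjamini-Hochberg method over 19938 genes; a gene was called at an adjusted p under 0.05. The members and gene lists were chosen with earlier results of these data known. Named were the 10 members, the 3 genes most like each over the 12 group means, and in each list of related genes the 2 called with the largest difference in a comparison; further names are marked as chosen later. The 6 knockout and drug comparisons share no arrays, whereas successive stages and the changes of an effect do.

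The alternatives were quantile normalisation, median centring, a filter on genes with a mean under 6, the mean of a gene's probe sets, an intensity trend, array weights, a fit of only the arrays compared, the replicate number as a block, and each array left out; a fit without the knockout ES arrays and a crossed block for NP cells were chosen after seeing the data. The fit was tested on simulated data with known changes put into knockout cells at TN day 6. Each gene had the same spread in every simulated group, so arrays that stand apart, as in the knockout ES pair, were not covered. The number of arrays limits the precision. The files name no genome build; gene lengths, neighbours and promoters came from RefSeq tables of GRCm38.p6.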

Additional observations from a re-analysis of the deposited data

Results flagged for a closer look

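The knockout effect of 3 members changed between TN day 2 and TN day 6 by limma's test of the difference itself. It was higher at the later day by 1.27 ± 0.16 on the log2 scale for Prph, the peripherin gene (SE, adjusted p = 5.9e-05), by 1.17 ± 0.23 for Nefm and by 1.02 ± 0.20 for Nefl (adjusted p = 0.0035 each). Prph was 0.044 higher in knockout cells at TN day 2 and 1.31 higher at TN day 6, whereas Nefm and Nefl were 0.15 and 0.37 lower at TN day 2 on means whose differences were not called, and 1.02 and 0.64 higher at TN day 6.

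The ICRF-193 effect of the neurofilament subunits Nefl and Nefm differed between the neuron types in the same kind of test. Both calls depended on single arrays. The effect in cortical neurons minus that at TN day 5 was -0.79 ± 0.20 for Nefl (limma adjusted p = 0.021) and -0.86 ± 0.23 for Nefm (adjusted p = 0.029). Nefl was 0.50 higher with the drug at TN day 5 and 0.29 lower in cortical neurons, the latter without a call, and Nefm was 0.83 higher at TN day 5 and 0.027 lower in cortical neurons. For the subunit Nefh the effect in cortical neurons minus that at TN day 5 was 0.33 ± 0.31 and was not called (limma adjusted p = 0.71).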

How the results depend on the processing

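The counts of members called depended on how the spread was estimated. With the arrays compared as the only source of the spread, the calls at TN day 2 fell from 4 lower to 0, in ES cells from 1 lower to 0, and at TN day 5 from 1 lower to 0 and from 2 higher to 1. The ES call was also lost with array weights (0). The TN day 5 count of higher members was 1 with median centring, array weights or the replicate block too. In the other direction, cortical neurons had 1 higher member in place of 0 with array weights, with only the arrays compared and without the knockout ES arrays, and wild-type cells from TN day 2 to TN day 6 had 5 in place of 3 under the same settings. Lower members at TN day 6 numbered 1 in place of 0 with quantile normalisation, the filter, the intensity trend or without the knockout ES arrays, and 2 with array weights or only the arrays compared. The change of the knockout effect from TN day 2 to TN day 6 gave 6 higher members in place of 3 with array weights and 7 without the knockout ES arrays. The change from NP to TN day 2 gave 2 lower members in place of 0 with quantile normalisation, median centring, the filter, the trend or array weights, and 3 without the knockout ES arrays, a fit that also called 1 lower member in NP cells. Leaving out 1 array at a time gave 0 to 7 lower members in ES cells, 0 to 5 at TN day 2, 2 to 3 in cortical neurons, and 1 to 2 higher members at TN day 5. It gave 0 to 3 lower members for the change of effect from NP to TN day 2, 2 to 3 higher for that from TN day 2 to TN day 6, and 0 to 2 lower for that between the neuron types. In wild-type cells it gave 4 to 5 higher from ES to NP, 8 to 9 from NP to TN day 2, and 2 to 3 higher with 1 to 2 lower from TN day 2 to TN day 6. The higher members at TN day 6 stayed 3. The share of all genes called in each of these fits is not given, so a changed count need not be particular to the members. The cause of these changes was not tested. Of 1740 alternative values of single members, 42 changed sign, and 0 of these were called in either fit. Same-numbered arrays did not deviate together throughout (correlations of -0.23 in NP cells to 0.379 at TN day 5), and 0 of the 6 arrays correlated best with their own number at TN day 6 and in cortical neurons, so the numbers were not used as pairs. The replicate block lost Nefl at TN day 5 and Tubb3 at TN day 2, and crossing the NP numbers, chosen after seeing the data, left 0 members called there.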
